A study of Mus musculus with 4 samples.

Results

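Ccn1, Plaur, Rhob and Zyx encode proteins that act in cell adhesion and cell movement. Their RNA was compared between FosB mutant and wild-type mouse embryonic stem (ES) cells, cultured pluripotent cells derived from the early embryo. They are 4 of the 6025 genes that had a probe annotated to 1 gene only. The members were chosen from the fosBd/d ratios of an earlier analysis of these arrays, so their fosBd/d values are a description and carry no test. Each member had 1 probe (numbers 4796, 2737, 8714 and 3766), and each was read on all 4 arrays.

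The samples were fosBd/d ES cells, whose homozygous allele makes no FosB protein other than the short form ΔFosB, fosB-null ES cells, and wild-type ES cells. The cells grew without feeder cells. The series title gives 72 h without serum, then 4 h with it, for every group. Each mutant was hybridised against wild type on 2 cDNA arrays with 2 colours, with the dyes exchanged between them (a dye swap). Whether a mutant is 1 clone, and whether the arrays of a swap used separate cultures, is not given in the sources used here, so the spread below is between arrays and may be technical. No cells without serum were analysed here, so induction of these genes by serum was not tested.

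As background, serum drives ERK and actin signalling in the cell, and these act on promoters through factors such as SRF, YAP with TEAD, and AP-1, the dimer to which FosB belongs. Ccn1 (formerly Cyr61) is a secreted matrix protein that cells bind through integrins. Plaur is the receptor that holds the protease urokinase at the cell surface. Rhob is an endosomal small GTPase that is rapidly made after growth factors, and Zyx (zyxin) is a LIM-domain protein of focal adhesions that recruits actin-building proteins. In the embryo, adhesion and migration genes of this kind are also active in the endoderm cells that leave the pluripotent state.

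Promoter windows of the 4 members were read from RefSeq (GRCm38.p6), from 250 bases before to 50 bases after an annotated start, because FosB is a subunit of AP-1. Plaur and Zyx each held an AP-1 site, searched as TGACTCA or TGAGTCA, 1 letter string being the other strand of its partner. Both are shown as 30 bases on the plus strand, along which both genes run, with the AP-1 site in capitals. The Plaur stretch is chr7:24462403-24462432 and the Zyx stretch is chr6:42349696-42349725.
Plaur: acccctggagcTGACTCActctttagcaaa
Zyx: agtgcggacagTGAGTCAgttctccagcac

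Counted from the annotated start, the Plaur site lay at -69 to -63 and the Zyx site at -121 to -115. The gene records are chr7:24460937-24475970 for Plaur and chr6:42349511-42360213 for Zyx. These starts lie 1546 bases (Plaur) and 317 bases (Zyx) inside the gene record, so each gene also has an annotated start further upstream. Of 32851 mouse promoter windows of this length, 5.20% held an AP-1 site. Ccn1 and Rhob held none in the window. Their 250 bases before the start are printed for comparison, both from genes on the minus strand (records chr3:145646971-145649985 and chr12:8497661-8500009) and written 5′ to 3′ along the gene. Capitals in Ccn1 (chr3:145649986-145650235) mark a TEAD site, searched as GGAATG on both strands, and capitals in Rhob (chr12:8500010-8500259) mark CCAAT boxes, searched as CCAAT on both strands.
Ccn1: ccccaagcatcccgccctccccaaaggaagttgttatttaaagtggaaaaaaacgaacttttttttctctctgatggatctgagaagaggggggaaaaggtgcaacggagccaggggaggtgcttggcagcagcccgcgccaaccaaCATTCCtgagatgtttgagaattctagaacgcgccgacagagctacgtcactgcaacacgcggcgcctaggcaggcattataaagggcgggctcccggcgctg
Rhob: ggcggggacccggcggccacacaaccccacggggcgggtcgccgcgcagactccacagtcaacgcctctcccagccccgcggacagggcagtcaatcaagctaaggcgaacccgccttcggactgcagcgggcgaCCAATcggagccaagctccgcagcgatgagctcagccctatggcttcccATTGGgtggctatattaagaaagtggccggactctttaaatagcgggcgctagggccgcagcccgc

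The TEAD match of Ccn1 lay at -103 to -98 from the start, and 14.7% of all windows held that string. Rhob held CCAAT at -115 to -111 and, on the other strand, at -66 to -62, and 37.4% of windows held at least 1. No member held the cyclic AMP response element TGACGTCA (1.79% of windows) or a CArG box, the SRF motif (1.63%). GC content of the window was 57.0% for Ccn1, 59.3% for Plaur, 65.3% for Rhob and 68.3% for Zyx, all above the median of 52.7% over all windows. The members thus had no motif common to all 4 among those searched. A match here is a string of letters and not evidence of binding.

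**Figure D1:**
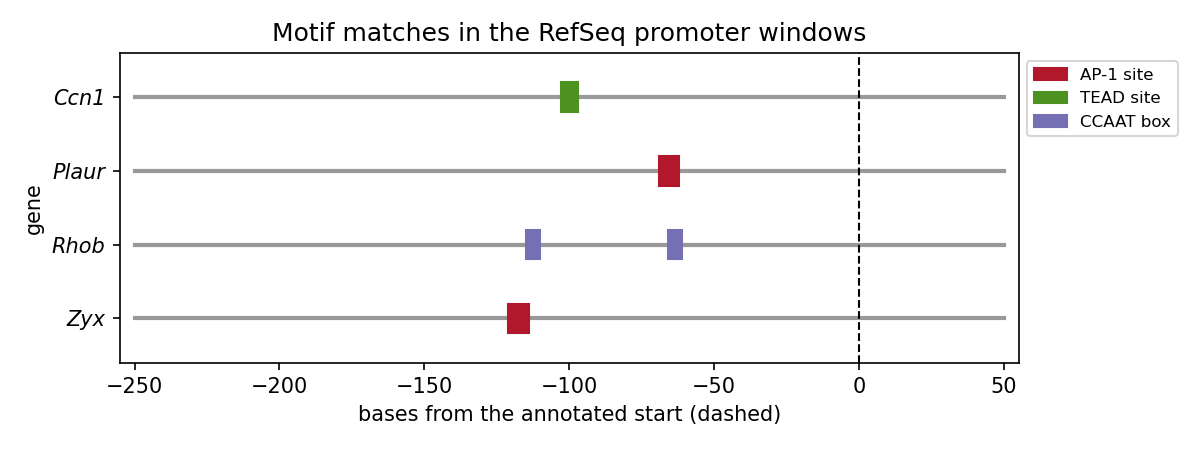
Motif matches in the RefSeq promoter windows of the 4 genes, plotted by bases from the annotated start (dashed line). Each coloured block is 1 match, and the AP-1 matches lie in Plaur and Zyx, the TEAD match in Ccn1 and both CCAAT matches in Rhob.

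Every value below is a log2 ratio within an array, from 9480 probes per array, each column with a median of 0. Signal intensities were not analysed here, so no level of RNA can be given. The direction of the ratios rests on the dye names, read as Cy5 over Cy3, together with marks that 1 column of each swap was multiplied by -1. All 960 exact zeros of fosBd/d replicate 1 are written with a minus, as are all 551 of fosB-null replicate 2, and none on the other arrays is. On this reading a gene with a positive ratio has more RNA than wild type in fosBd/d cells but less than wild type in fosB-null cells. Arrays with the mutant in the same dye correlated negatively across probes (r = -0.463 for replicate 1 of fosBd/d and fosB-null, and -0.369 for replicate 2), and so did the arrays within a swap (r = -0.125 in fosBd/d and -0.318 in fosB-null). The remaining pairs correlated positively. For the columns with the minus mark, fosBd/d replicate 1 and fosB-null replicate 2, r was 0.336. For those without it, fosBd/d replicate 2 and fosB-null replicate 1, r was 0.326. The labels' colour words, red for Cy3 and green for Cy5, would reverse this reading for both mutants. A common mutant over wild-type convention would reverse it for fosB-null alone, so that its deposited ratios would be mutant over wild type. The direction is therefore not settled. Positive fosBd/d ratios are called likely higher, and those of fosB-null are given by sign, with the turned value beside the comparison of the mutants. A turned sign below means the deposited ratio multiplied by -1.

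In fosBd/d cells all 4 members lay on the positive side on both arrays, at means between 2.13-fold and 2.73-fold, likely higher than in wild type. A positive ratio on both arrays was found for 21.7% of all probes, and nothing is read from the members' count because these ratios chose them. In bulk RNA, a different share of a cell type and a different amount of RNA per cell cannot be told apart. Among matrix and surface proteins, Ccn1 had log2 ratios of 1.38 and 1.52 on fosBd/d replicates 1 and 2, with a mean of 1.45 ± 0.10 (SD, n = 2 arrays) or 2.73-fold. Its arrays differed little, and 0.812% of all probes had a higher mean. Plaur had log2 ratios of 1.18 and 1.66, with a mean of 1.42 ± 0.34 (SD, n = 2) or 2.67-fold. Its second array was the highest value of any member, and 0.886% of probes had a higher mean than Plaur.

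Inside the cell, the GTPase Rhob had fosBd/d log2 ratios of 0.78 and 1.49, with a mean of 1.14 ± 0.51 (SD, n = 2) or 2.20-fold. It was the least even of the 4 and stayed under 2-fold on replicate 1. The adaptor Zyx had 1.08 and 1.10, with a mean of 1.09 ± 0.01 (SD, n = 2) or 2.13-fold, and was the most even. The other 3 members were at least 2-fold positive on both arrays, as were 1.24% of all probes. In the order Ccn1, Plaur, Rhob and Zyx, the array values of each gene overlapped those of its neighbour in range. Those of Zyx, last in the order, overlapped neither those of Ccn1 nor those of Plaur.

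**Figure D2:**
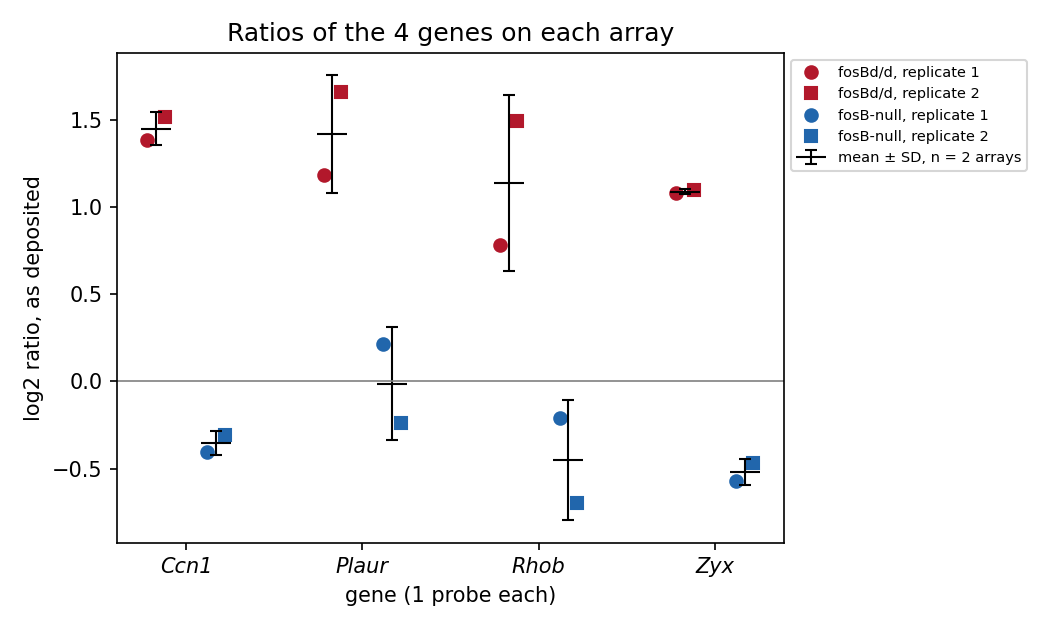
Log2 ratio of each gene on each array, as deposited, with fosBd/d in red left of fosB-null in blue. Points are arrays (circle replicate 1, square replicate 2) and bars are mean ± SD of 2 arrays. All fosBd/d points, from which the genes were chosen, lie at 0.78 or above. The fosB-null points lie below 0 except that of Plaur on replicate 1. Of all probes, 19.0% were negative on both fosB-null arrays.

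With the columns turned as the marks have it, the part of each ratio that followed the dye was small for Ccn1 and Zyx and larger for Plaur and Rhob. In the fosBd/d swap this dye part was 0.07 for Ccn1, 0.24 for Plaur, 0.36 for Rhob and 0.01 for Zyx. In the fosB-null swap it was -0.05 for Ccn1, 0.23 for Plaur, 0.24 for Rhob and -0.05 for Zyx. The probes of Plaur and Rhob thus had a dye part of the same sign in both swaps. A larger one than that of Rhob in fosBd/d was found for 33.5% of probes.

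In fosB-null cells the ratios were smaller, and this comparison was not used to choose the members. Ccn1, Rhob and Zyx were negative on both arrays, a pattern shown by 19.0% of all probes, whereas Plaur had opposite signs. No member was at least 2-fold on both arrays, as 0.243% of probes were. Zyx had -0.57 and -0.47 on fosB-null replicates 1 and 2, with a mean of -0.52 ± 0.07 (SD, n = 2), and 2.63% of probes had a lower mean. Rhob had -0.21 and -0.70, with a mean of -0.45 ± 0.34 (SD, n = 2). Ccn1 had -0.40 and -0.31, with a mean of -0.35 ± 0.07 (SD, n = 2). For Plaur the values were 0.22 and -0.24, with a mean of -0.01 ± 0.32 (SD, n = 2), so its arrays lay on either side of 0. Read by the dye names, the negative ratios of Zyx, Rhob and Ccn1 would mean more RNA in fosB-null than in wild-type cells.

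The fosB-null ratios were tested with limma over all 9480 probes, with a dye term and two-sided p-values adjusted by the Benjamini-Hochberg method. The fit also held the fosBd/d arrays, whose values chose the members. Those values therefore entered the dye term and the residual variance behind the p-values and intervals. No member passed. The adjusted p was 0.651 for Zyx, Rhob and Ccn1 and 1 for Plaur, and over the alternatives tried it lay between 0.553 and 1 for the first 3 genes and between 0.976 and 1 for Plaur. Over all probes 0 passed (0%), with 0.651 as the smallest adjusted p in limma. An unadjusted p under 0.05 was given to 578 probes (6.10%). That count was 179 without the dye term and 47 with the dye effect signed by the mutant's dye label. Among the 578 were Zyx (limma unadjusted p = 0.0224) and Rhob (0.0373), while Ccn1 (0.0623) and Plaur (0.902) were not. With the fosB-null arrays alone, the limma unadjusted p was 0.0416 for Zyx, 0.149 for Rhob, 0.0835 for Ccn1 and 0.954 for Plaur. In the fit of both mutants, the limma 95% interval of the log2 ratio ran from -0.88 to -0.16 for Zyx and from -0.84 to -0.06 for Rhob. It ran from -0.75 to 0.04 for Ccn1 and from -0.35 to 0.33 for Plaur. Without the dye term the interval of Rhob covered 0, at -1.24 to 0.34, as it did with the fosB-null arrays alone, at -1.29 to 0.38. With the dye effect signed by the mutant's dye label, the intervals of both covered 0, at -1.39 to 0.35 for Zyx and -1.61 to 0.71 for Rhob. They also covered 0 without either fosB-null array, at -1.40 to 0.46 for Zyx without replicate 1 and -1.50 to 0.36 without replicate 2. With 1 residual degree of freedom before moderation, these intervals rest on few arrays.

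**Figure D3:**
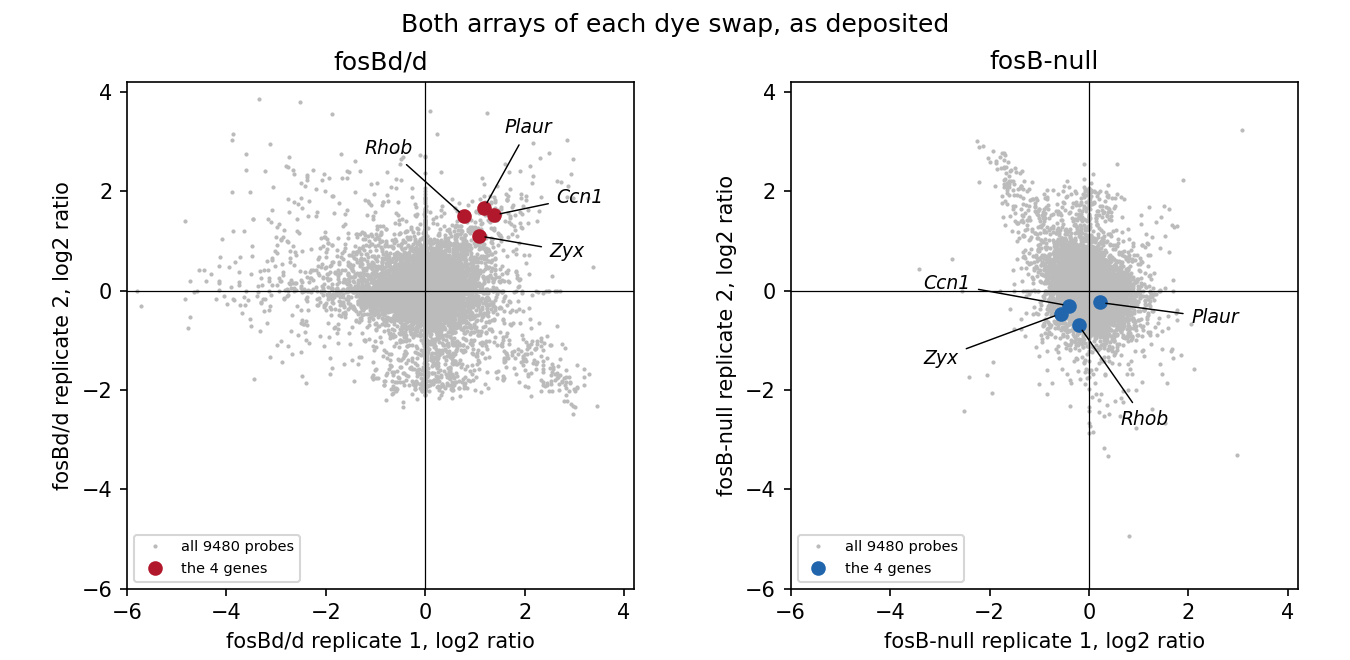
Replicate 2 against replicate 1 of each dye swap in log2 ratios, fosBd/d left and fosB-null right, with all 9480 probes in grey and the 4 genes in colour. In fosBd/d the genes lie in the upper right quadrant, with values from 0.78 to 1.66, and in fosB-null they lie nearer to 0, with values from -0.70 to 0.22.

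Set side by side, the fosBd/d mean was the larger in size for every member. Differences are fosBd/d minus fosB-null, with an SE from the spread within each swap, and carry no test because the fosBd/d values chose the members. As deposited, Ccn1 differed by 1.81 ± 0.08 (SE), Zyx by 1.61 ± 0.05, Rhob by 1.59 ± 0.43 and Plaur by 1.43 ± 0.33. These compare the mutants only if both columns are mutant over wild type. Read by the dye names, they add the changes of both mutants from wild type. With the fosB-null sign turned, as the dye names have it, the differences were 1.41 for Plaur, 1.10 for Ccn1, 0.69 for Rhob and 0.57 for Zyx with the same SEs. Plaur alone was nearly unmoved by the turn, since its fosB-null mean was near 0. Both comparisons use wild-type cells, and whether the RNA was the same extract is not given in the sources used here.

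Partners of the members were read from lists chosen for their roles with earlier results of these data known, and no list was tested. Genes with several probes were averaged, and the backgrounds are shares of all 6025 genes. In fosBd/d, 25.0% of genes were positive and 24.2% negative on both arrays, 1.53% were at least 2-fold positive on both, and the median of gene means was -0.02. In fosB-null, 19.5% were positive and 21.9% negative on both arrays, with a median of 0. Partners in the next paragraphs that are under 2-fold on an array are named for their role or sign, after their values were seen.

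For Ccn1, 2 of 5 listed members of the CCN family were measured, Ccn4 and Ccn5. Ccn4 had fosBd/d ratios of 0.05 and 0.31, and Ccn5 had -0.06 on replicate 1 and was listed at 0 on replicate 2. Of 17 integrins and co-receptors measured of 30 listed, 4 were positive and 4 negative on both fosBd/d arrays, with a median of 0.07, and in fosB-null 1 was positive and 6 negative with a median of -0.06. The list's medians were 0.11 and -0.05 on fosBd/d replicates 1 and 2 alone, and -0.14 and -0.000887 on those of fosB-null. Among integrin chains known to bind Ccn1, Itgav had 1.58 and -0.65 in fosBd/d, and Itgb3 was listed at 0 on replicate 1 and had 1.86 on replicate 2. Itgam had -2.36 and -0.39 in fosBd/d, and Itga6 had -0.12 and 0.07. Of other integrin chains in the list, Itgb1 had 0.59 and -0.10 in fosBd/d, Itgb2 0.88 and -0.05, and Itga2b -1.40 and -0.10. Not every measured chain is named here. Neither Ccn4 nor Ccn5 reached the ratio of Ccn1 on a fosBd/d array, but Ccn1 was chosen from its fosBd/d values.

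For Plaur, 9 of 12 listed genes of plasminogen activation were measured, of which 4 were positive and 1 negative on both fosBd/d arrays, with a median of 0.50. In fosB-null 1 was positive and 6 were negative on both arrays, with a median of -0.27 (-0.18 on replicate 1 alone and -0.37 on replicate 2 alone). The ligand Plau (urokinase) had fosBd/d ratios of -0.03 and -0.28 and fosB-null ratios of -0.21 and -0.38. The receptor and its ligand thus had opposite signs in fosBd/d, where Plau was at -0.15 ± 0.18 (SD, n = 2). Anxa2, an annexin that binds plasminogen activator at the surface, had 1.2 and 0.91 in fosBd/d over its 2 probes. Plat, the tissue-type activator, disagreed between the fosBd/d arrays with 1.94 and -0.06. Lrp1, which clears urokinase with its inhibitor and receptor, had 0.29 and 0.90 in fosBd/d and -0.43 and -0.91 in fosB-null.

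For Zyx, 21 of 46 listed focal adhesion genes and zyxin partners were measured, of which 9 were positive and 3 negative on both fosBd/d arrays, with a median of 0.13. That median was 0.43 on fosBd/d replicate 1 alone and 0.12 on replicate 2 alone. Palld (palladin, an actin crosslinker of stress fibres) was at least 2-fold on both, with 1.33 and 1.79 in fosBd/d, a mean of 1.56 ± 0.32 (SD, n = 2) or 2.95-fold. In fosB-null Palld had -0.63 and -0.75, so it had the signs of Zyx on all 4 arrays. The actin-building proteins that zyxin binds were closer to 0. Vasp had 0.70 and 0.16 in fosBd/d, Enah -0.03 and 0.30, and Evl -0.03 and 0.30. Tgfb1i1, a LIM-domain adaptor of focal adhesions, had 0.86 and 1.73. The 3 genes negative on both fosBd/d arrays were Sorbs3 (-1.09 and -0.27), Tln2 (-0.56 and -0.05) and Ajuba (-0.10 and -0.13). Lpp disagreed between the fosBd/d arrays with 0.08 and -1.08. In fosB-null this list had 6 positive and 7 negative on both arrays and a median of -0.10, which was -0.10 on replicate 1 alone and 0.12 on replicate 2 alone.

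Among genes known to follow SRF or YAP, 15 of 24 listed were measured, of which 8 were positive and 1 negative on both fosBd/d arrays, and the fosBd/d median was 0.56. That median rested on replicate 1, since the list's median was 0.64 on fosBd/d replicate 1 alone and 0.0086 on replicate 2 alone. In fosB-null 1 was positive and 8 were negative on both, with a median of -0.32 (-0.53 on replicate 1 alone and -0.22 on replicate 2 alone). F3 (tissue factor) had 2.86 and 3.02 in fosBd/d, a mean of 2.94 ± 0.11 (SD, n = 2), and Ankrd1, a much used YAP target, had 1.5 and 1.11, a mean of 1.30 ± 0.28. In fosB-null F3 had -0.57 and -0.79, and Ankrd1 had -0.90 and -0.65. These were the genes of the list at least 2-fold on both fosBd/d arrays. Cnn1 (calponin, a smooth muscle actin-binding protein) was the gene of the list negative on both fosBd/d arrays, with -0.71 and -0.90, and Tagln, another smooth muscle gene, had 0.45 and -0.44.

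The serum early response list had 32 measured genes of 59, of which 16 were positive and 5 negative on both fosBd/d arrays, at a median of 0.30 (0.31 on replicate 1 alone and 0.19 on replicate 2 alone). None was at least 2-fold on both arrays. Hbegf, a growth factor made after serum, had 0.78 and 1.03, the transcription factor Egr3 had 0.83 and 0.80, and the AP-1 subunit Fos had 0.11 and 0.82. The 5 negative genes included Nr4a3 (-2.04 and -0.01), Pim1 (-0.42 and -1.29) and Nfkbia (-0.20 and -0.45). The others of them were Per1 (-0.21 and -0.22) and Dusp6 (-0.04 and -0.16). In fosB-null 6 genes of the list were positive and 8 negative on both arrays, with a median of -0.02 (-0.07 on replicate 1 alone and 0.12 on replicate 2 alone).

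**Figure D4:**
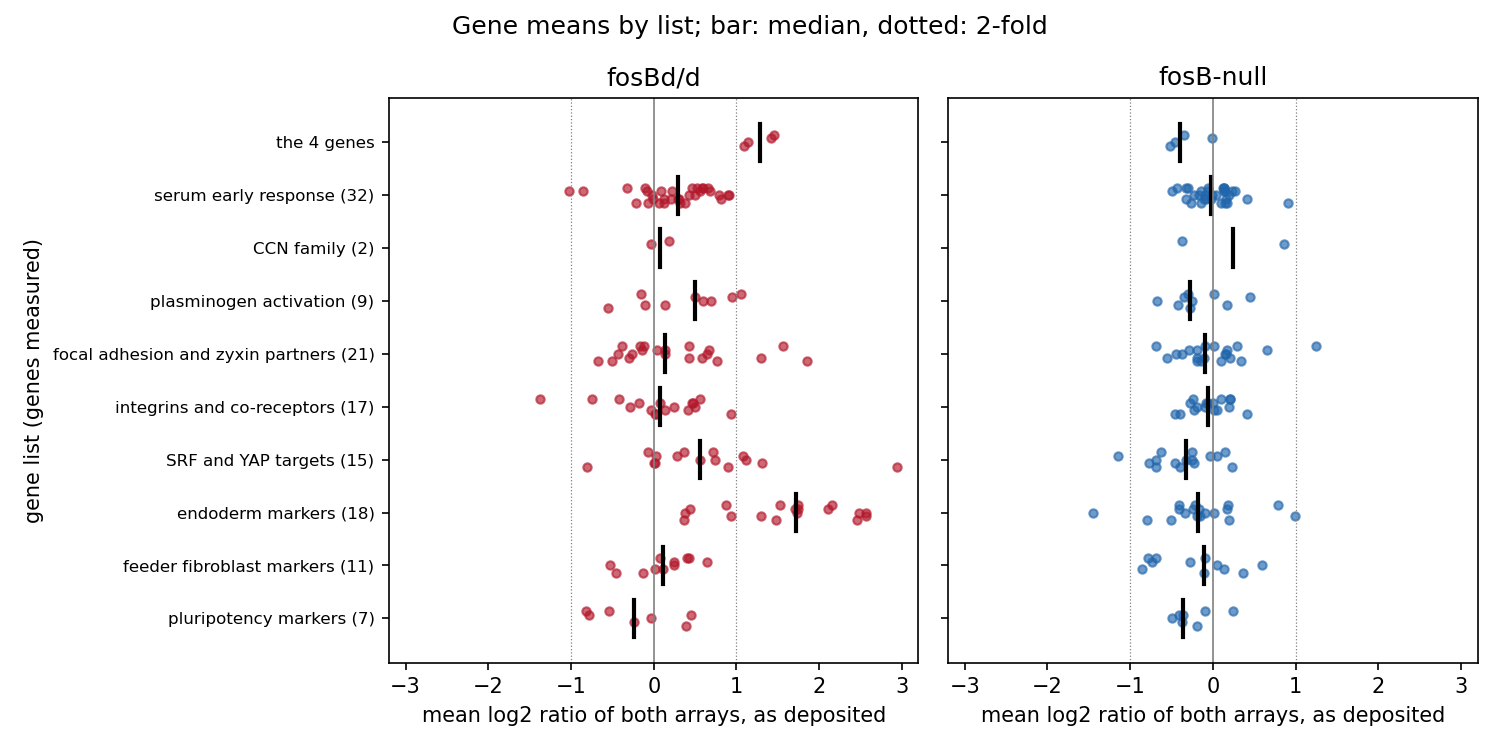
Mean log2 ratio of both arrays for every measured gene of each list, fosBd/d left and fosB-null right, with a black bar at the median and dotted lines at 2-fold. In fosBd/d the 4 genes lie beyond the medians of the serum, plasminogen, adhesion, integrin and SRF and YAP lists. They were chosen from these values, so nothing is read from their place. The endoderm markers have a fosBd/d median of 1.72.

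Markers of the ES state and of other cell types were read beside the members. Of 18 endoderm markers measured of 26 listed, 15 were positive and 0 negative on both fosBd/d arrays and 13 were at least 2-fold, with means from 0.36 to 2.57 and a median of 1.72 (1.82 on replicate 1 alone and 1.63 on replicate 2 alone). The largest were the collagen IV chain Col4a2 (2.17 and 2.97), Thbd (3.28 and 1.86), Col4a1 (2.30 and 2.66) and the laminin chain Lamb1 (2.74 and 2.19). In fosB-null 3 were positive and 9 negative on both arrays, with means from -1.45 to 0.99 and a median of -0.18, and Thbd was at least 2-fold negative at -1.01 and -1.88. The feeder fibroblast markers, 11 of 16 measured, had a fosBd/d median of 0.12, ranging from -0.53 to 0.65, with 5 positive and 2 negative on both arrays. In fosB-null they had a median of -0.10, with 0 positive and 5 negative. The fibroblast medians were -0.06 and 0.25 on fosBd/d replicates 1 and 2 alone, and -0.23 and -0.27 on those of fosB-null. The pluripotency markers, 7 of 15 measured, had a fosBd/d median of -0.24, where 2 were positive and 3 negative on both arrays, and a fosB-null median of -0.37, with 1 positive and 5 negative. The pluripotency medians were -0.64 and 0.14 on fosBd/d replicates 1 and 2 alone, so their sign rested on replicate 1, and -0.30 and -0.21 on those of fosB-null. Pou5f1, Nanog and Sox2, the defining pluripotency genes, were not analysed here, so the ES label was not checked by them. Being ratios, these values cannot show that a marker is absent. The part of these markers in the members' ratios was not tested.

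The genes with the most similar values were sought by Euclidean distance over the 4 log2 ratios, among 5935 probes with 1 gene and no exact 0. This is a description over 4 arrays. Nearest to Ccn1 was Tmbim1 at a distance of 0.32, followed by Pxdn (peroxidasin, which crosslinks collagen IV) at 0.33 and Dnmt3b (a DNA methyltransferase) at 0.38. Nearest to Plaur was B4galnt2 at 0.22, then the elastic fibre protein Eln at 0.31 and the retrieval receptor Kdelr3 at 0.32. Rhob was closest to Eps8, a regulator of actin, at 0.20, then Creb3l1 at 0.32 and the potassium channel Kcnk1 at 0.33. Zyx was closest to the annexin Anxa5 at 0.22, then Rab15 at 0.32 and Glrx at 0.39. No member was among the 3 nearest of another. Distances between members ran from 0.57 (Ccn1 and Zyx) to 0.996 (Plaur and Zyx). After scaling all arrays to equal spread, 2 of the 3 names were found again for Ccn1, 1 for Plaur, 3 for Rhob and 2 for Zyx.

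**Figure D5:**
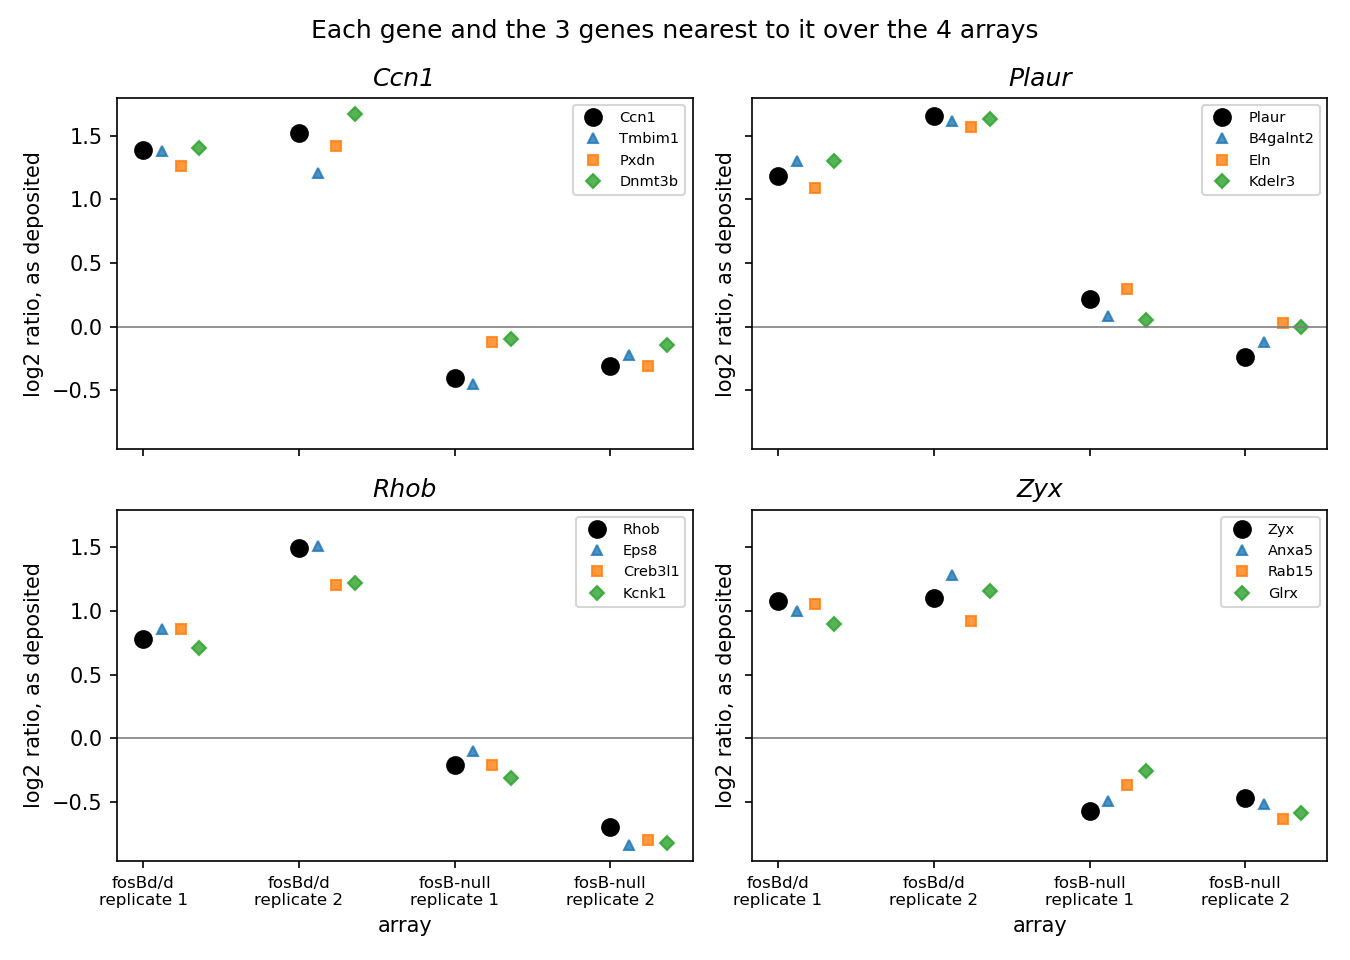
Log2 ratios of each gene (black circles) and of the 3 genes nearest to it (coloured symbols, set slightly to the right) on the 4 arrays. Rhob and Eps8 are 0.20 apart and share the lower value on fosBd/d replicate 1, and the neighbours of Plaur lie between -0.12 and 0.30 on the fosB-null arrays.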

How the data were processed

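Arrays were Agilent mouse cDNA microarrays, and ratios were made with Agilent Feature Extraction, per the submitters' processing notes. Each probe has 1 deposited value for each array, a log10 ratio by that software's definition. How the authors corrected background, normalized dyes and filtered spots, and the software version, is not stated in the labels. Values were multiplied by the log2 of 10 (3.322), so every fold rests on that base. The 2 arrays of a mutant were numbered in accession order, which pairs nothing.

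Probes were named from a platform annotation of 2007, updated by gene identifier through RefSeq (6496 of 6566 probes with 1 gene matched). All 4 arrays entered 1 limma fit (limma 3.58.1, R 4.3.3) over the 9480 probes. It held both mutants' ratios and a dye effect signed by the marks of turning, and calls were made at an adjusted p of 0.05. A call by size needed 2-fold or more in 1 direction on each array of a mutant. The step was run on simulated data with 1 fixed noise variance, set well under the variance of the members in the fit. That run checks the code and cannot show how many changed probes would be found in these data.

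Members and lists were chosen with earlier results of these data known. Named genes were the members, up to 4 list genes per list and direction that were at least 2-fold on both arrays, and the 3 nearest genes of each member. Further partners were named for their role or sign. The results of 1 further list are not reported here. Alternatives were the dye term, single arrays, array scaling, exact zeros, sign, log base, fold and choice of probe.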

Additional observations from a re-analysis of the deposited data

Results flagged for a closer look

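As deposited, 3 members were positive on both fosBd/d arrays and negative on both fosB-null arrays. The fosBd/d side of this pattern was set by how the members were chosen. Of all probes, 21.7% were positive on both fosBd/d arrays and 19.0% negative on both fosB-null arrays. The share with both signs is not given here, so nothing is read from the members' count. The differences, fosBd/d minus fosB-null, were 1.81 for Ccn1, 1.59 for Rhob and 1.61 for Zyx on the log2 scale. These differences were not tested. Read by the dye names, they add the changes of both mutants from wild type. With the fosB-null sign turned, as the dye names have it, both mutants would lie on the same side for these genes. The fosB-null means would then be 0.35, 0.45 and 0.52.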

How the results depend on the processing

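The fosBd/d means kept their sign under each scaling, under the omission of exact zeros and on each array alone. Scaling to equal median absolute deviation gave 1.31 for Ccn1 and 0.98 for Zyx, quantile normalization gave 1.30 and 0.97, and Plaur and Rhob moved by less than their SD. Taken as log2 values in place of log10, the means of Ccn1, Plaur, Rhob and Zyx were 0.44, 0.43, 0.34 and 0.33, and 0 probes were then 2-fold on both arrays in either mutant. With the fosBd/d sign turned, as the colour words read, they were -1.45, -1.42, -1.14 and -1.09. With the fosB-null sign turned, the fosB-null means were 0.35, 0.0124, 0.45 and 0.52 in the same order. Plaur was also reversed without fosB-null replicate 2, at 0.22, and its values ran from -0.24 to 0.22 without 1 array.

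The number of probes at least 2-fold on both arrays, in either direction, was 150 in fosBd/d and 23 in fosB-null. At 1.5-fold these were 445 and 103, and after quantile normalization fosB-null had 49. On 1 array alone they were 1117 to 1382 in fosBd/d and 328 to 619 in fosB-null. The 578 fosB-null probes with an unadjusted p under 0.05 became 179 without the dye term, 176 with the fosB-null arrays alone and 46 to 179 without 1 array, where no dye term was fitted. With the dye term set by the mutant's dye label, an alternative chosen after seeing the data, they were 47. The cause of these shifts was not tested. Of the 9 lists, 1 had a positive fosB-null median, and 0 to 3 had one without 1 array. Of the list medians recomputed, 100 moved by less than the SD between arrays and 26 by more. A median among the 100 could still change sign, so the count is not a measure of stability. The fosBd/d pluripotency median, at -0.24, was 0.14 without fosBd/d replicate 1 and is among them. In fosB-null 0 probes passed limma under any alternative. The number of arrays limits the precision, and signal over background was not analysed here.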
